A study of Mus musculus with 4 samples.

Results

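The genes of 10 receptor tyrosine kinases were followed in bone marrow mesenchymal stromal cells (MSCs): the collagen receptors Ddr1 and Ddr2, the Wnt-linked receptors Ror1, Ror2, Ptk7 and Ryk, and Met, Ntrk2, Ntrk3 and Tek. They were taken by gene symbol from the deposited count table, where all 10 of 10 symbols matched 1 row each among 56980 listed genes. The libraries came from 4 wild-type male mice of an in-house C57BL/6J colony, aged 14 weeks, with 100 cells of the surface phenotype CD45- Ter119- CD31- CD51+ PDGFRa+ Sca1- sorted per mouse from the bone marrow. All 4 libraries form 1 group, so no conditions were compared. Levels are given as TPM, a count corrected for gene length and scaled to 1000000 per library, and a level of 1 TPM was the cutoff for a gene taken as expressed.

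Receptor tyrosine kinases span the cell membrane and carry a kinase domain inside the cell that is switched on when a ligand brings receptors together. DDR1 and DDR2 are unusual because their ligand is the collagen of the matrix itself, and DDR2 is known for its role in the growth of bone. ROR1, ROR2, PTK7 and RYK take part in Wnt signaling, ROR2 as a receptor for WNT5A in the developing skeleton and PTK7 and RYK as pseudokinases with little or no kinase activity of their own. MET binds hepatocyte growth factor, the products of Ntrk2 and Ntrk3 bind neurotrophins, and the product of Tek, also known as TIE2, binds angiopoietins on endothelial cells and blood stem cells.

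Ryk and Ddr2 were the main receptors of the group and were read in every library. Ddr1 was low but above 1 TPM in every mouse, and Ptk7 was above 1 TPM in 3 of 4 mice. Ror2, Tek, Ror1 and Ntrk3 were each missing from at least 1 library, and Met and Ntrk2 had no count in any. Together Ryk and Ddr2 held between 82.5% and 93.0% of the summed TPM of the 10 genes in a library, and this sum was 50.7 ± 18.2 TPM (mean ± SD, n = 4 mice).

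**Figure D1:**
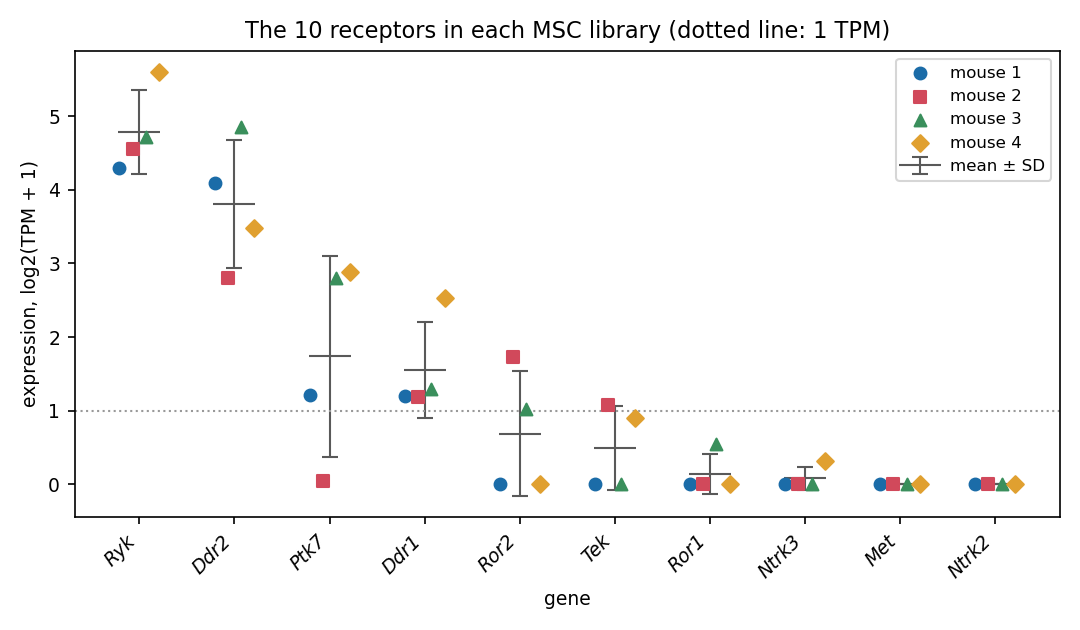
Expression of the 10 receptor genes, as log2(TPM + 1) on the vertical axis, in each of the 4 MSC libraries, with 1 symbol per mouse and the mean ± SD over the mice as a bar. Ryk lies between 18.6 and 47.7 TPM and Ddr2 between 6.00 and 27.9 TPM, whereas Met and Ntrk2 lie at 0 in all 4 mice.

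The starts of 4 genes are shown, those of the highest receptors, Ryk and Ddr2, and of the undetected ones, Met and Ntrk2, so that their CpG content can be set side by side. Each window holds 300 bases around the RefSeq start of the gene in GRCm38.p6, on the strand of the gene, with every CG in capitals. They are those of Ryk (chr9:102834670-102834969, plus strand), Ddr2 (chr1:170088895-170089194, minus strand), Met (chr6:17463707-17464006, plus strand) and Ntrk2 (chr13:58806319-58806618, plus strand).
Ryk: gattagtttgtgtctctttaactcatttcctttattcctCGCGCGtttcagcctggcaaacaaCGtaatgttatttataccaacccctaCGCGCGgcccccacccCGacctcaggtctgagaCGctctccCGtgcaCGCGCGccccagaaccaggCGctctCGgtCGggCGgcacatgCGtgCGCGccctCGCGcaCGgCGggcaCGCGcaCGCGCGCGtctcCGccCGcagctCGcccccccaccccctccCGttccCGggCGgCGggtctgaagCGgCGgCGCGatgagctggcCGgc
Ddr2: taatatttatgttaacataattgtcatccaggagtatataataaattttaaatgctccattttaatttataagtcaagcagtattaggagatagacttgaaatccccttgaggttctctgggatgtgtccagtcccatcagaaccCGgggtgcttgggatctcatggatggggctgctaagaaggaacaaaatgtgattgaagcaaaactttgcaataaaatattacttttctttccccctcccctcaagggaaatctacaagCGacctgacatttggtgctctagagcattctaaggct
Met: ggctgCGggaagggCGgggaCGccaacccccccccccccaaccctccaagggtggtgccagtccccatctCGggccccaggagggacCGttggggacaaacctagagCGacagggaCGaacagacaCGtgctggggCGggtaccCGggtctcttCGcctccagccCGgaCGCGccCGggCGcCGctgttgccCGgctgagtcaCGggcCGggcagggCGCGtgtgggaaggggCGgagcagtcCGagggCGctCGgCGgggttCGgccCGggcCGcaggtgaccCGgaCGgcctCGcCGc
Ntrk2: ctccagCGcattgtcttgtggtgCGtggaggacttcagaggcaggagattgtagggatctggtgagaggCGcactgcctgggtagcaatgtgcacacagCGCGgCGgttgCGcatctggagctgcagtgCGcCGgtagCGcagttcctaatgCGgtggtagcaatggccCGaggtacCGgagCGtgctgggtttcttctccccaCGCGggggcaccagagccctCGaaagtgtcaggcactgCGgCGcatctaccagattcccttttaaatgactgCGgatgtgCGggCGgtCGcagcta

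The Ryk window held 42 CG and the Ddr2 window 2, while those of the undetected genes Met and Ntrk2 held 34 and 23. The median over 32851 such windows of all genes was 7, and 94.6% of them held at least 1 CG. Windows were found for 9 of the 10 receptors, and Ntrk3 was without one. Ror2 had 32 CG, Ptk7 22, Ror1 10 and Tek 3, and the 4 windows of Ddr1, which has several starts, had between 7 and 39. The letters TATAAA, searched on both strands and apart from CG, were found in the windows of Ryk and Ddr2 and in 13.6% of all windows. The RefSeq start of Ddr2 lies inside the longer gene that GENCODE M21 annotates there, so other transcripts of Ddr2 start elsewhere. A match of letters is a description and not a binding site.

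The libraries of mice 1 to 4 held 43545349, 26050230, 42747050 and 22738604 counts on genes, and 3 counts, the floor used for detection, amount to between 0.0689 and 0.132 CPM (counts scaled to 1000000 per library). Mouse 2 had the fewest genes with a count, 16109 against at least 18683 in the others. The positive sort antigens were read in every mouse, with Pdgfra at 39.8 ± 7.29 TPM and Itgav, which encodes CD51, at 15.7 ± 2.51 TPM (SD, n = 4 for each). Ptprc, Pecam1 and the Sca1 gene Ly6a stayed at or under 0.264 TPM, except for Ly6a in mice 2 and 4. Ly6a had 8.95 TPM in mouse 2 and 11.6 TPM in mouse 4, against what the Sca1- gate would select. The gate was set on surface protein, so these RNA values cannot tell whether it failed. Niche markers of stromal cells, which include Cxcl12 and Lepr, were read in every mouse, as were the osteoblast markers, led by Bglap, which summed to between 77834.5 and 168068 TPM. The summed markers of red blood cells ranged from 35.0 to 4980 TPM, those of adipocytes from 199 to 962 TPM and those of chondrocytes from 8.30 to 249 TPM. In such sorted samples, fewer cells with a transcript and less transcript per cell cannot be told apart.

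Ddr2 (ENSMUSG00000026674), the receptor for fibrillar collagen, lies on chromosome 1 of GRCm38 from 169972307 to 170110762 on the minus strand, and its longest transcript has 18 exons. It had 2631, 618, 4462 and 974 counts in mice 1 to 4, or 16.1, 6.00, 27.9 and 10.2 TPM. Mouse 3 was the highest and mouse 2 the lowest, and the mean was 15.0 ± 9.51 TPM (SD, n = 4). Its coefficient of variation over the mice came to 63.2%, beside a median of 42.4% over the 4673 genes with a mean between 10 and 100 TPM. The lowest Ddr2 value fell in the library in which the summed stromal niche markers were highest at 4644 TPM. The other libraries lay between 1067 and 2387 TPM. Cxcl12 alone had 4329 TPM in mouse 2, and Lepr, Kitl and the other genes of the list except Prrx1 were also highest there. Prrx1, named after its values were seen, was lowest in mouse 2, at 10.6 TPM against 12.0 to 19.4 TPM. The part of these markers in the result was not tested. With a median of 13.2 TPM, Ddr2 exceeded 91.1% of the genes that have a length. Ddr2 shares 0.972% of its exonic bases with 3110045C21Rik on the opposite strand, which had at most 2 counts in a mouse.

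Ddr1 (ENSMUSG00000003534; GRCm38 chromosome 17, from 35681567 to 35704621, minus strand), known mostly as a collagen receptor of epithelia, was read weakly in every mouse, with between 68 and 235 counts. In mice 1 to 4 these correspond to 1.29, 1.28, 1.45 and 4.76 TPM, so that 3 libraries lay close together and mouse 4 stood above them. The mean was 2.20 ± 1.71 TPM (SD, n = 4). The epithelial markers Epcam, Cdh1, Krt5, Krt8, Krt18 and Krt19 summed to 0.927 TPM in mouse 4 and to at most 0.0259 TPM in the others. The 4 keratins had 0 counts in every mouse, and the part of such cells in the Ddr1 value was not tested. Ddr1 shares 4.53% of its exonic bases with Gm4577 on the opposite strand, which had 0 counts in every mouse.

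Within each mouse Ddr2 was the higher of the collagen receptors. Their ratio in TPM was 12.6, 4.68, 19.2 and 2.14 in mice 1 to 4, a difference of 2.26 ± 1.19 in log2(TPM + 1) (SD, n = 4), higher in 4 of 4 mice. The difference was larger than its SD between mice. Flipping the signs of the differences in all ways (exact permutation test, two-sided) gave p = 0.125, which is the lowest p this permutation test allows with 4 mice. Adjusted by Benjamini-Hochberg for the 4 related pairs that were compared, it was 0.25.

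Ryk (ENSMUSG00000032547; GRCm38 chromosome 9, from 102834917 to 102908305, plus strand), a Wnt receptor with a pseudokinase domain, had 1485, 1132, 1987 and 2233 counts, or 18.6, 22.4, 25.4 and 47.7 TPM. Mouse 4, which had the fewest counts in all, was the highest, and the other mice lay between 18.6 and 25.4 TPM. The mean of 28.5 ± 13.1 TPM (SD, n = 4) had a coefficient of variation of 45.8%, the smallest of the 8 receptors with a count and close to the median of 42.4% for genes at 10 to 100 TPM. Its median exceeded those of 94.1% of the genes that have a length.

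Ptk7 (ENSMUSG00000023972; GRCm38 chromosome 17, from 46564471 to 46629504, minus strand), a pseudokinase of planar cell polarity, had 125, 2, 558 and 357 counts. In TPM it was 1.32 in mouse 1, 0.0334 in mouse 2, 6.00 in mouse 3 and 6.42 in mouse 4. It was thus nearly absent from mouse 2, where 3 counts would be worth 0.0501 TPM, and highest in mice 3 and 4. The SD of 3.24 TPM was close to the mean of 3.44 TPM (n = 4). Ryk was higher than Ptk7 in 4 of 4 mice, and on the log2(TPM + 1) scale Ptk7 minus Ryk was -3.05 ± 1.08 (SD, n = 4; exact permutation p = 0.125, adjusted p = 0.25).

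Ror2 (ENSMUSG00000021464; GRCm38 chromosome 13, from 53109312 to 53286124, minus strand) had 0, 109, 76 and 0 counts in mice 1 to 4, or 2.31 TPM in mouse 2 and 1.04 TPM in mouse 3. Ror1 (ENSMUSG00000035305; GRCm38 chromosome 4, from 100095791 to 100444765, plus strand) had 46 counts, or 0.462 TPM, in mouse 3 and 0 counts in the others. Mouse 3 was therefore the only library with both ROR receptors, and mice 1 and 4 had neither. By counting error alone, a count of 0 allows up to 0.0684 TPM of Ror2 and 0.0504 TPM of Ror1 in the shallowest library, mouse 4. Ror2 was higher than Ror1 in 2 of 4 mice and equal at 0 in the other two, by 0.55 ± 0.82 in log2(TPM + 1) (SD, n = 4), less than the SD between mice (exact permutation p = 0.5, adjusted p = 0.5).

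**Figure D2:**
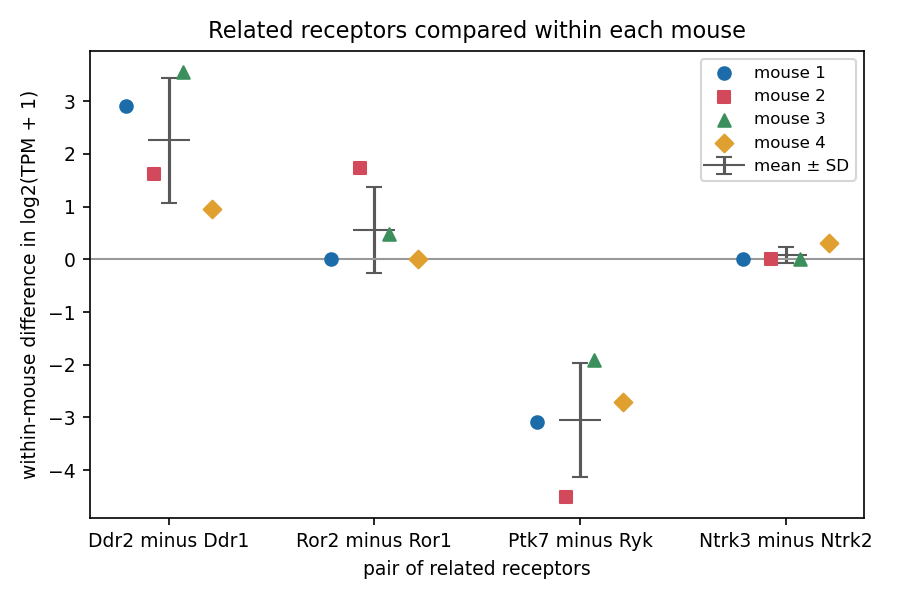
Difference between related receptors within each mouse, in log2(TPM + 1), with 1 symbol per mouse and the mean ± SD over the 4 mice as a bar. The differences of Ddr2 from Ddr1 lie above 0 and those of Ptk7 from Ryk below 0 in all 4 mice, while those of the ROR and neurotrophin receptors include values of 0.

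Tek (ENSMUSG00000006386; GRCm38 chromosome 4, from 94739289 to 94874976, plus strand) had 58 counts in mouse 2 and 42 in mouse 4, or 1.11 and 0.863 TPM, and 0 counts in mice 1 and 3. The libraries without Tek were the deeper ones. The endothelial genes Cdh5, Kdr and Tie1 had 0 counts in every mouse, and the whole list of 6 endothelial markers summed to at most 0.235 TPM, nearly all of it Pecam1. Kit, the stem cell factor receptor of blood progenitors, was read in the same mice as Tek, with 207 and 133 counts against 0 in mice 1 and 3, as was Ly6a with 120 and 144 counts against at most 1. The list of 6 markers of blood stem and progenitor cells, Kit among them, summed to 0 TPM in mouse 1, 2.09 TPM in mouse 2, 7.22 TPM in mouse 3 and 5.26 TPM in mouse 4. Of these, Cd34 and Procr were read in mouse 3 only, with 166 and 168 counts. Gata2 was read in mice 3 and 4 only, with 104 and 213 counts. Another 2 genes of the list had 0 counts in every mouse, among them Hlf. The summed markers of pericytes and smooth muscle were also higher in mice 2 and 4, at 29.6 and 11.6 TPM, than in mice 1 and 3, at 2.96 and 2.13 TPM, with Acta2 and Mcam at 0 counts in all. Of this list Rgs5 was read in mice 2 and 4 only, at 29.1 and 2.94 TPM, whereas Cspg4, at 2.96, 0.558, 2.08 and 7.49 TPM in mice 1 to 4, was lowest in mouse 2. The part of such cells in the Tek counts was not tested. Kit, Rgs5 and the other single genes of marker lists are named after their values were seen.

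Ntrk3 (ENSMUSG00000059146; GRCm38 chromosome 7, from 78175959 to 78738012, minus strand), the receptor of neurotrophin 3, had 75 counts in mouse 4, 1 in mouse 1 and 0 in mice 2 and 3. Since its merged exons span 30170 bases, the 75 counts come to only 0.241 TPM. The glial genes Sox10 and Gfap had at most 1 count in any mouse. The whole list of 7 Schwann and neural markers summed to 31.8, 27.4, 96.5 and 77.3 TPM, nearly all of it Ncam1 and Tubb3, and the part of such cells in the Ntrk3 counts was not tested. Ntrk2 (ENSMUSG00000055254; GRCm38 chromosome 13, from 58806569 to 59133970, plus strand), the receptor of brain-derived neurotrophic factor, had 0 counts in every mouse. By counting error alone, this allows up to 0.0151 TPM in mouse 4. Ntrk3 minus Ntrk2 was 0.08 ± 0.16 in log2(TPM + 1) (SD, n = 4; exact permutation p = 0.5, adjusted p = 0.5), and Ntrk3 was the higher in 2 of 4 mice.

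Met (ENSMUSG00000009376; GRCm38 chromosome 6, from 17463800 to 17573980, plus strand) also had 0 counts in every mouse. By counting error alone, this allows at most 0.0222, 0.0351, 0.0226 and 0.0378 TPM in mice 1 to 4. Neither Met nor Ntrk2 was detectable at this depth.

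In order of the mean log2(TPM + 1) the receptors ran Ryk, Ddr2, Ptk7, Ddr1, Ror2, Tek, Ror1 and Ntrk3, followed by Met and Ntrk2 at 0. Only 1 of the 9 neighbouring pairs, Ddr2 above Ptk7, differed in the same direction in every mouse. The difference was 2.07 ± 1.05 (SD, n = 4), more than its SD (exact permutation p = 0.125, adjusted p = 0.9 over the 9 pairs). The order came from these same values, so the direction of each mean difference was fixed beforehand and these p-values test no independent question. Ryk and Ddr2 did not differ beyond their spread, with 0.98 ± 1.12 (SD, n = 4), and Ddr2 was the higher in mouse 3. Ptk7 and Ddr1 differed by 0.19 ± 1.09 (SD, n = 4). The differences of the other pairs of neighbours were also smaller than their SD, or 0 in every mouse for Met and Ntrk2. As CPM, without a correction for length, Ddr2 had a higher mean than Ryk, 57.8 against 55.6, since its merged exons span 9264 bases and those of Ryk 4534.

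The receptors were set beside all protein-coding genes and the other receptor tyrosine kinases. A median above 1 TPM was reached by 4 of the 10, namely Ryk, Ddr2, Ptk7 and Ddr1, where 44.2% of protein-coding genes reach it, and 22.9% of all genes with a length. More than 1 TPM in every mouse was found for 3 of the 10, Ryk, Ddr2 and Ddr1, against 30.1% of protein-coding genes. No count in any mouse was found for 2 of the 10, against 29.4%, and counts in some but not all mice for 4 of the 10, against 29.9%. These shares are near the background, so they are no result about the receptors. Of the 48 other receptor tyrosine kinases, 15 had a median above 1 TPM, 7 were above 1 TPM in every mouse and 13 had no count.

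**Figure D3:**
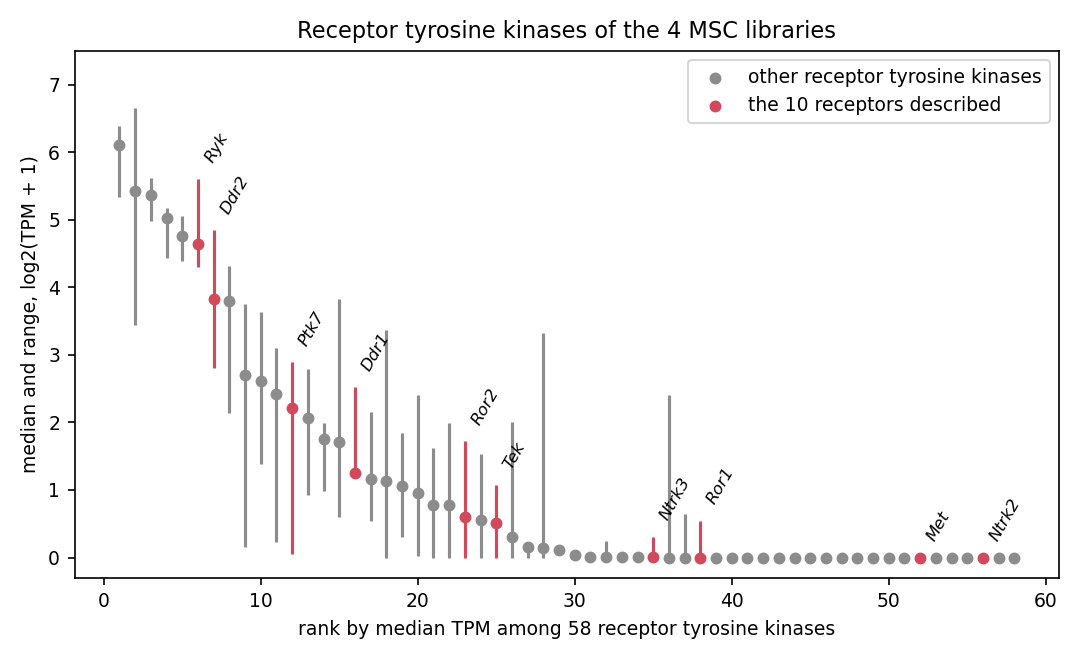
Median and range over the 4 mice of each of 58 receptor tyrosine kinases, in log2(TPM + 1), ordered by the median, with the 10 receptors described here in red and labelled. Ryk is 6th and Ddr2 7th, after 5 receptors with medians between 25.9 and 68.0 TPM, and Ptk7 and Ddr1 are 12th and 16th.

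By median TPM, Ryk ranked 6 and Ddr2 ranked 7 among the 58 receptor tyrosine kinases, below 5 receptors led by Fgfr1, Pdgfrb and Pdgfra. Ptk7 ranked 12, Ddr1 16, Ror2 23 and Tek 25. Medians of the 5 leading receptors lay between 25.9 and 68.0 TPM, and that of Ryk was 23.9 TPM. Being read in one library and missing from another was frequent for weak genes. All 4 receptors with a mean between 0.05 and 1 TPM, Ror2, Tek, Ror1 and Ntrk3, had 0 counts in at least 1 mouse and 30 or more in another, and so did 36.4% of the 6593 genes in this range. The median coefficient of variation between mice in this range was 177%, and those of these 4 receptors were 117% or more.

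Ligands of the receptors were read in the same libraries. Of 10 collagen genes whose products bind DDRs, 9 had a median above 1 TPM, where 44.2% of protein-coding genes do. In every mouse 8 were above it, where 30.1% are. Col1a1, Col1a2 and Col5a2 led, and the genes of type I collagen had 26626 ± 3682 TPM and 11265 ± 1957 TPM (SD, n = 4), against 15.0 TPM for Ddr2. Col3a1 was far lower, at 13.1 ± 7.31 TPM (SD, n = 4). Col10a1, the cartilage collagen that DDR2 also binds, named after its values were seen, had 1 count in mouse 4 and 0 in the others.

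**Figure D4:**
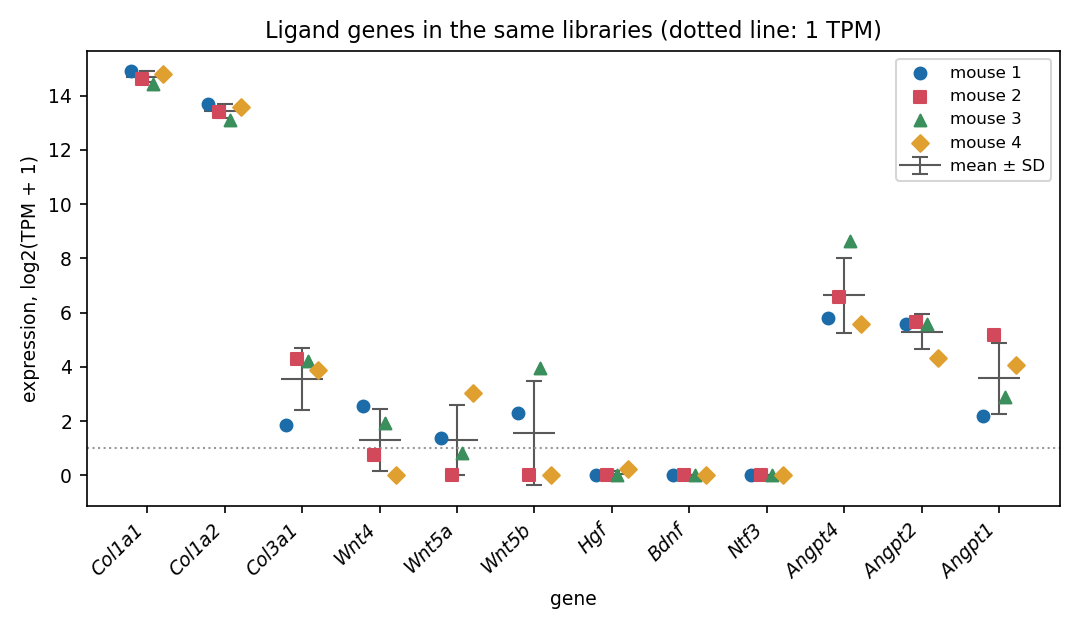
Expression of ligand genes, as log2(TPM + 1) on the vertical axis, in each of the 4 MSC libraries, with 1 symbol per mouse and the mean ± SD over the mice as a bar. The genes of type I collagen lie highest and the angiopoietins above 1 TPM in every mouse, while Bdnf and Ntf3 lie at 0.

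Of the 19 Wnt genes, 3 had a median above 1 TPM, Wnt5b, Wnt4 and Wnt5a, where 44.2% of protein-coding genes do. None was above 1 TPM in every mouse, where 30.1% are. Wnt5a, the ligand of ROR receptors, had 217, 0, 106 and 584 counts, or 1.58, 0, 0.784 and 7.22 TPM. It shares 4.58% of its exonic bases with Gm2670 on the opposite strand, which had 0 counts in every mouse. Mouse 2, where Ror2 was highest and Ptk7 nearly absent, was therefore without Wnt5a. Wnt5b was read in mice 1 and 3 only, with 184 and 664 counts, and Wnt11 had 6 counts in mouse 4 alone. Of the 18 genes of planar polarity and noncanonical Wnt signaling, 7 had a median above 1 TPM, where 44.2% of protein-coding genes do. This is near the background, so it is no result about these genes. The GTPases Rhoa and Rac1 and the signal transducer Dvl3 had the highest medians.

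All 3 angiopoietins were above 1 TPM in every mouse. Angpt1, the activating ligand of the Tek product, had 3.60, 34.9, 6.35 and 15.9 TPM in mice 1 to 4 and was thus highest in mice 2 and 4, where Tek was read. Angpt2 had 40.8 ± 14.6 TPM (SD, n = 4), with 47.1, 49.6, 47.4 and 19.0 TPM in mice 1 to 4. Angpt4 had 147 ± 165 TPM (SD, n = 4), with 54.9, 94.6, 393 and 46.5 TPM in mice 1 to 4. Both were thus lowest in mouse 4, where Tek was read, and Angpt4 was highest in mouse 3, which had no Tek. Angpt1 was 31.5 and 18.4 times as high as Tek in mice 2 and 4. Angpt1 shares 14.2% of its exonic bases with Gm17473 on the opposite strand, which had 0 counts in every mouse.

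The ligands of the undetected receptors were weak or undetected as well. Hgf, the ligand of MET, had 12 counts in mouse 4, 1 in mouse 3 and 0 in mice 1 and 2. It shares 6.74% of its exonic bases with Gm43489 on the same strand, which had 0 counts. In the HGF group, none of the 7 genes of HGF and its activation had a median above 1 TPM, where 44.2% of protein-coding genes do. Hpn of this list, named after its values were seen, had 136 counts, or 3.21 TPM, in mouse 4 and 0 in the others. Bdnf, Ntf3 and Ntf5 had 0 counts in every mouse, and Ngfr, the p75 receptor of all neurotrophins, had 1 count in mouse 1. Of the 6 genes of neurotrophins and their receptors outside the Trk family, Sort1, a sorting receptor with further ligands, had a median above 1 TPM, at 13.8 TPM. Of the 18 adaptors and regulators shared by receptor tyrosine kinases, 17 had a median above 1 TPM, where 44.2% of protein-coding genes do, and 11 were above it in every mouse, where 30.1% do. Shc1, Crk and Stat3 had the highest medians, between 25.7 and 26.5 TPM.

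Sequence shared with other genes, over which the counting could split reads, was small. No receptor has a stretch of at least 100 bases with 95% identity to another of the 10. Such stretches in other genes cover 5.60% of the longest Ddr1 transcript, 1.68% of that of Ntrk3 and 1.20% of that of Ddr2, and none of the other receptors. Counting was not stated to use strand, and 7 of the 10 receptors share neither exonic bases nor such stretches with another gene.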

How the data were processed

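RNA-seq libraries of 4 mice were analysed, each made from sorted MSCs by a Smart-seq2-type method with PCR and tagmentation. The authors deposited raw counts of read pairs per gene. Per the labels and the supplementary methods, read pairs were aligned to GRCm39 with STAR 2.7.10 and uniquely mapped pairs counted on exons with featureCounts (Subread 1.6.5), with no strand option given. The tools are those of the submitters' processing notes.

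TPM was computed in Python 3.11.15 from merged exon lengths of GENCODE M21 (GRCm38, not the build of the counts), joined by Ensembl identifier for 52125 of 56980 genes which hold 96.1% to 98.2% of a library. No TPM was given to the 4855 listed genes lacking a length. This step was tested on simulated data. Coordinates and promoter windows are those of GRCm38. Protein sequences were not used here.

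Depth was between 22738604 and 43545349 counts. The floor of 3 counts covers counting error only, since no molecular identifiers are described and PCR copies are not independent.

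Members of the group, gene lists, pairs and alternatives were chosen with earlier results of these data known. All 10 receptors are named, and of each other list the 3 genes with the highest median, textbook ligands and sort antigens, with exceptions marked. Values of some genes of these lists are not reported here. Genes were compared within mice as differences in log2(TPM + 1) with exact sign-flip permutation tests and Benjamini-Hochberg adjustment. The p-values test for a mean difference within these mice. When all mice share a sign, p is the lowest possible whatever the spread between them. Alternatives were the longest transcript as length, no length, edgeR 4.0.16 TMM factors, DESeq2 1.42.0 size factors, a protein-coding denominator, a minimum of 10 counts, other cutoffs, a pseudocount of 0.1, the median over mice and leaving out each mouse. Near-identical stretches were searched with BLAST 2.17.0.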

Additional observations from a re-analysis of the deposited data

Results flagged for a closer look

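Over the 4 mice 49 values were compared, and in 14 of them 1 library lay far outside the rest by Dixon's test. About 1 in 20 groups shows this by chance (2.45 of 49), and in these libraries 38.5% of all genes with a count do. Among the receptors, Ddr1 was apart in mouse 4 at 4.76 TPM, Ror1 in mouse 3 at 0.462 TPM and Ntrk3 in mouse 4 at 0.241 TPM. The difference of Ntrk3 from Ntrk2 was apart in the same mouse at 0.31 in log2(TPM + 1). Among the ligands, Angpt2 was lowest in mouse 4 at 19.0 TPM against 47.1 to 49.6 TPM, and Angpt4 was highest in mouse 3 at 393 TPM. Hgf at 0.162 TPM and Wnt11 at 0.140 TPM were apart in mouse 4, and Ngfr in mouse 1 at 0.0165 TPM, which is 1 count.

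Mouse 2 had 16109 genes with a count against 18683 to 18907 in the others. Ptprc was highest in mouse 4 at 0.264 TPM. The epithelial markers were highest in mouse 4 at 0.927 TPM, the macrophage markers in mouse 3 at 6.72 TPM and the megakaryocyte and platelet markers in mouse 1 at 7.95 TPM. In the epithelial list 4 of 6 genes, and in the macrophage list 4 of 6, had 0 counts in every mouse.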

How the results depend on the processing

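The number of receptors with a median above 1 TPM, 4, fell to 2 with a cutoff of 5 TPM, which left Ryk and Ddr2, rose to 6 with a cutoff of 3 counts, and was between 4 and 5 when each mouse was left out. The number above 1 TPM in every mouse, 3, was between 3 and 4 without 1 mouse, Ptk7 being added without mouse 2. The number of neighbouring receptors that differed in the same direction in every mouse, 1, was 2 with the length of the longest transcript and between 1 and 3 with each mouse left out, with 3 without mouse 2 and 2 without mouse 3. No difference between related receptors changed sign, but scaling, filter and pseudocount act on both genes of a mouse alike. Ntrk2 was 0 in every mouse, which fixed the sign of its pair. No mouse had the opposite sign in any related pair, so leaving out a mouse could not reverse a mean. For the other pairs, only the length bears on this. Ddr2 minus Ddr1 lay between 1.83 and 2.69 with each mouse left out, Ror2 minus Ror1 between 0.16 and 0.74, Ptk7 minus Ryk between -3.43 and -2.57, and Ntrk3 minus Ntrk2 between 0.000905 and 0.10, the lowest of the last pair without mouse 4. Ror2 minus Ror1 was lowest without mouse 2. Ryk had the highest mean log2 level of the 10 under all 10 alternatives of length, scaling, filter and mice. Scaling and filter act on all genes of a mouse alike and could hardly reorder them. By mean CPM, without the log2, Ddr2 was higher than Ryk. The exact permutation test used cannot give a p under 0.05 with 4 mice or fewer. No paired analysis was possible because there is no second group of samples to pair with these, and the tests within mice pair genes. What causes the changes was not tested.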
